A study of Mus musculus with 27 samples.

Results

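Kap (kidney androgen regulated protein, ENSMUSG00000032758) is 1 of the 19392 genes in the expression table of the kidneys studied here, and it was chosen because its level was the highest of all genes in the control kidneys and lower in every group with ischemia. Those values are therefore given as a description, and no test of Kap itself is reported. RNA-Seq was performed on the left kidneys of 27 C57BL/6 mice, 3 at each of 9 ischemia times. In every mouse, the 0 min controls included, the right kidney was removed and the left kidney was collected after 24 h, and the mice were kept on a heating platform during surgery. The left renal pedicle was clamped for 16, 18, 20, 22, 24, 26, 28 or 30 min in the ischemia groups and was not clamped in the 0 min (sham) group. The labels give neither sex nor age. In all 27 kidneys the 4 Y-linked genes Ddx3y, Eif2s3y, Kdm5d and Uty were above 0. Their lowest values were 7.36, 18.59, 2.92 and 5.73 FPKM, so RNA from the Y chromosome was present in every kidney.

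Kap encodes a small protein made by proximal tubule cells, which reabsorb most of the glomerular filtrate and are the segment most exposed to loss of oxygen. In the mouse kidney its transcription is known to be under androgen control, with thyroid hormone also required in part of the proximal tubule, and the gene's regulatory region is a common tool for driving transgenes in these cells. The transcript is short and very abundant, so its level can weigh on any measure that sets each gene against the total.

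In the GENCODE M21 annotation of GRCm38, Kap lies on the minus strand of chr6:133849851-133853762 and has 4 exons in each of 2 annotated transcripts. Kap-201 is 707 bases long with 366 coding bases, and Kap-202 is 464 bases long with 315 coding bases. The first 175 bases of the Kap-201 coding sequence are shown because the transcripts differ there, and because FPKM divides by a transcript length that then depends on which is used. The capitals mark the 51 bases, positions 74 to 124 from the A of the start codon, that Kap-202 lacks.
Kap-201: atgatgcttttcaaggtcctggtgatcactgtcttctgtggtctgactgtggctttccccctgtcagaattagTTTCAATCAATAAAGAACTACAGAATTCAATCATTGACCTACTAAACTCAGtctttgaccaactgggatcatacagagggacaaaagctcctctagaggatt
The missing stretch is 17 codons long and keeps the reading frame. In the 300 bases from 250 before to 50 after the gene's start in RefSeq, the letters TATAAA occurred once on the gene's strand. They lay 31 bases before that start, and 8.319% of 32851 such mouse windows held them. The RefSeq start is at 133853667 and Kap-202 starts at 133853673, but Kap-201 starts further upstream, at 133853762. The TATAAA therefore lies within the first exon of Kap-201. The letters AGAACA, a half-site of the androgen response element, were not in the Kap window on either strand, and 18.97% of the windows held them.

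Values were FPKM (fragments per length of transcript and per number of mapped fragments) as deposited, which are already per length, and the read depth of the kidneys is unknown. Summed FPKM was close to constant over the 27 kidneys, from 512453 to 554036. The library of the third 16 min kidney stood apart, with a summed FPKM of 1524.89 for 7 tubular injury genes (Havcr1, Lcn2, Spp1, Krt20, Clu, Vcam1 and Sox9) against 9359.68 and 12820.5 in the other 16 min kidneys and 989.94 to 2014.78 at 0 min. Its Kap level was 24504 FPKM, below the 0 min range, while its summed injury genes, mostly Spp1 (1192.38 FPKM), were within it. Singly, Havcr1 (35.08 FPKM), Krt20 (1.97), Clu (261.85) and Sox9 (0.43) were above all controls. Lcn2 and Spp1 were within their range and Vcam1 (1.75) was just below it. The upper end of the control sums came from the third 0 min kidney, where Havcr1 was at 22.02 FPKM against 2.81 and 2.49. Gene calls and list counts after 16 min are also given without it where leaving it out changed them.

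At 0 min, Kap was at 49644, 47741 and 47048 FPKM in the 3 kidneys. After 16 min it was at 31299, 18844 and 24504 FPKM. All 3 values were below the lowest control, and the mean was 51.7% of the control mean, or 52.1% without the third kidney. After 18 min the kidneys were at 21839, 21855 and 29488 FPKM, and after 20 min at 22244, 22144 and 27815 FPKM. The 16, 18 and 20 min groups overlapped one another, with means of 24882 ± 6236, 24394 ± 4412 and 24068 ± 3246 FPKM (SD, n = 3). After 22 min the values were 18985, 14842 and 16215 FPKM, and after 24 min they were 15538, 15607 and 19054 FPKM. These overlapped each other and lay below every kidney of the 18 and 20 min groups, and their means were 34.6% and 34.8% of the control mean.

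After 26 min Kap was at 10677, 9022 and 15967 FPKM, a wide spread in which the highest kidney reached the lowest of 24 min. After 28 min it was at 6470, 6439 and 7975 FPKM, below all 26 min kidneys. After 30 min it was at 5423, 5071 and 7468 FPKM, which overlapped 28 min. The mean after 30 min was 5987 ± 1294 FPKM (SD, n = 3), 8.04 times lower than the control mean, and the highest kidney of all was 9.79 times the lowest. In the order of the 9 levels, neighbouring groups were separate between 0 and 16 min, between 20 and 22 min and between 26 and 28 min, and overlapped at the other 5 steps. On the log2(FPKM + 1) scale the mean difference from 0 min was -0.98 after 16 min, -1.54 after 22 min, -2.06 after 26 min, -2.80 after 28 min and -3.03 after 30 min. In bulk kidney RNA, fewer proximal tubule cells and less Kap RNA per cell cannot be told apart.

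**Figure D1:**
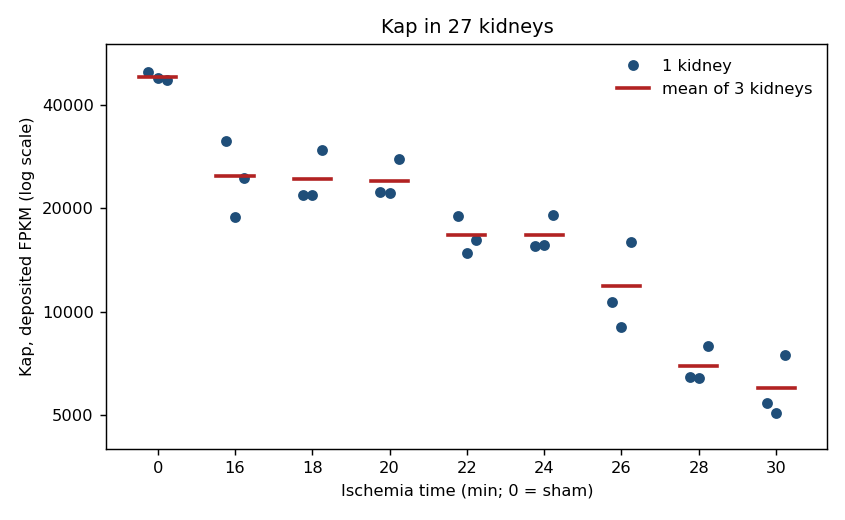
Deposited FPKM of Kap (y axis, log scale) in each of 27 kidneys by ischemia time in min (x axis, times evenly spaced), with points for single kidneys and red lines for the mean of 3. The 0 min kidneys sit between 47048 and 49644, the 16 to 20 min groups overlap, the 22 and 24 min groups overlap, and the 28 and 30 min kidneys sit between 5071 and 7975.

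Kap was the most abundant transcript in 8 of 27 kidneys: all 3 at 0 min and 5 of those at 16 to 20 min. Gpx3, the plasma glutathione peroxidase secreted by the proximal tubule, was first in 16 kidneys, and Spp1 (osteopontin), a secreted glycoprotein induced in injured tubules, was first in 3. Kap took 8.96% ± 0.29 (SD, n = 3) of summed FPKM at 0 min, 4.65% ± 1.12 after 16 min, 2.26% ± 0.68 after 26 min and 1.12% ± 0.27 after 30 min. By group mean, no gene was above Kap up to 20 min, and Gpx3 alone was above it from 22 to 26 min. After 28 min the genes above it were Gpx3, Spp1 and both ferritin chains, Fth1 and Ftl1. After 30 min they were Spp1, Gpx3, Fth1 and Gm46894, the last being named because it passed Kap and not by any list. Kap's mean was 1.79 times that of Gpx3 at 0 min and 0.35 times after 30 min, both per transcript length. Ferritin genes have many near-identical copies in the genome, so their levels are uncertain.

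The share that left Kap was the largest single loss at every ischemia time. After 16 min Kap lost 4.30 percentage points of summed FPKM, 33.6% of all that was lost by genes whose share went down. After 30 min it lost 7.84 points, 26.0% of the loss. The next largest losses after 30 min were 1.84 points for Gpx3 and 0.33 points for Slc34a1, the main phosphate transporter of the proximal tubule. Spp1 gained 3.16 points after 30 min, from 0.22% to 3.38%, and Fth1 gained 0.77 points. Because the sum stayed nearly constant, the FPKM summed over all genes but Kap was higher after 30 min (531384 ± 13446, SD, n = 3) than at 0 min (489490 ± 4648).

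**Figure D2:**
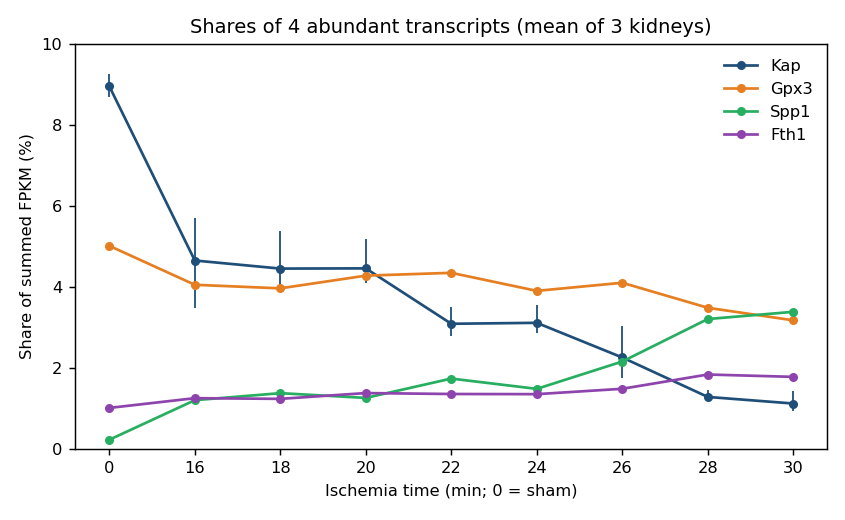
Mean share of summed FPKM in percent (y axis) of Kap, Gpx3, Spp1 and Fth1 by ischemia time in min (x axis), with vertical lines for the lowest and highest Kap share of the 3 kidneys. Kap's share goes from 8.96% at 0 min to 1.12% after 30 min, while that of Spp1 goes from 0.22% to 3.38%.

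A scaling question follows from these shares: how much do other genes' values move when Kap is kept in, or left out of, the total to which each kidney is scaled? For this, FPKM values were scaled to a constant sum with Kap in it and again with Kap left out, and limma was fitted each time on 18188 genes. A gene was called when its log2 fold change was beyond 1 in size at a Benjamini-Hochberg adjusted p under 0.05. With one and the same total, leaving Kap out would raise other genes by 0.131 to 0.140 (log2) in the 0 min kidneys. In the 30 min kidneys it would be 0.013 to 0.021. In the fits each version was scaled to the mean of its own sums, so values without Kap were lower by a further constant in all kidneys. That constant cancels in differences between times, apart from the pseudocount. The mean difference of 30 min from 0 min then moved by -0.11 for genes with a mean of at least 10 FPKM.

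After 30 min against 0 min, 1973 of the 18187 other genes (10.8%) were called with Kap in the sum, of which 1089 were higher and 884 lower. Leaving Kap out gave 1962 calls (10.8%), of which 922 were higher and 1040 lower, so the direction with more calls turned. The 2 sets shared 1806 genes. The 167 genes called only with Kap in the sum were all higher after 30 min, and the 156 called only without it were all lower. This follows from the scaling itself, which moved the differences of all genes well above the pseudocount down by about the same amount. After 28 min the split went from 933 higher and 673 lower to 784 higher and 791 lower (8.83% and 8.66% of the other genes called). After 26 min it went from 528 higher and 237 lower to 444 higher and 275 lower (4.21% and 3.95%), and after 16 min from 287 and 153 to 262 and 169 (2.42% and 2.37%). Without the third 16 min kidney the last split went from 457 and 198 to 417 and 228 (3.61% and 3.55%). For 28 min against 26 min, where Kap's share differed less, 282 and 286 genes were called (1.55% and 1.57%) and 279 were shared. No gene was called in opposite directions in any of these comparisons, which a shift of about 0.11 or less could not bring about at this fold threshold.

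**Figure D3:**
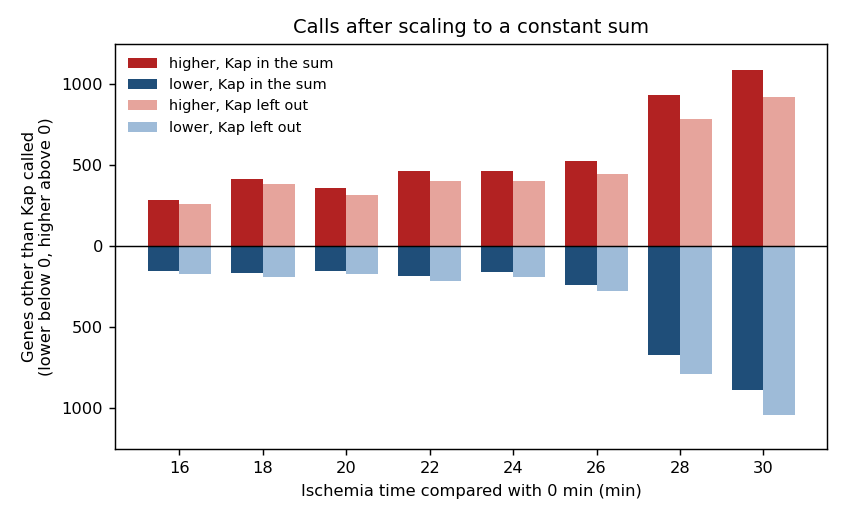
Number of genes other than Kap called higher (above 0) or lower (below 0) against 0 min (y axis) by ischemia time in min (x axis), after scaling each kidney to a constant sum with Kap in it (dark bars) or left out (pale bars). After 30 min the bars go from 1089 higher and 884 lower to 922 higher and 1040 lower.

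The genes whose call depended on Kap were those near the threshold. Rplp0, a protein of the large ribosomal subunit's stalk, differed by 1.11 (log2) between 28 and 0 min with Kap in the sum and by 0.998 without it, and was called only in the former (adjusted p = 1.05e-08 and 3.35e-08, limma). H6pd, the hexose-6-phosphate dehydrogenase of the endoplasmic reticulum, went from 1.12 to 0.999 after 30 min and lost its call at adjusted p of 1.38e-06 and 4.73e-06 (limma). After 16 min Dpyd, which starts the breakdown of pyrimidines, was called lower only without Kap, at -0.99 against -1.05. Mt2, a metallothionein, was called higher after 16 min only with Kap in the sum, at 1.42 (adjusted p = 0.042, limma) against 1.35 (adjusted p = 0.057). Without the third 16 min kidney both genes were called in either scaling, Dpyd at -1.31 and -1.37 and Mt2 at 2.23 and 2.16, with and without Kap in the sum. After 26 min Banf1, a chromatin-binding protein of the nuclear envelope, was at 1.10 with Kap and 0.997 without it.

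The effect is smaller for FPKM as such, whose total is fragments and not summed FPKM, because Kap is short. With the 707 bases of Kap-201, the longer transcript, Kap's FPKM came to an estimated 3.40% of mapped fragments at 0 min and 0.42% after 30 min. Without those fragments, the FPKM of every other gene would be higher by 0.050 on the log2 scale at 0 min and by 0.0061 after 30 min. Both are upper values, since a shorter length gives fewer fragments for the same FPKM.

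Quantile normalization, which the study's methods describe, treats an abundant gene in another way, since it replaces each value with the mean of the values at the same rank. Kap was first in all 0 min kidneys and second in all 22 and 24 min kidneys. Its mean difference from 0 min then became -0.14 after 16 min, -0.42 at 22 and 24 min, -1.17 after 26 min, -2.31 after 28 min and -2.53 after 30 min. The difference between 16 and 0 min was thus 0.98 in size on deposited values and 0.14 after this step, and that between 28 and 26 min was 0.74 and 1.15. The SD was 0 in groups whose 3 kidneys had Kap at the same rank, so this step removed the spread between them.

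**Figure D4:**
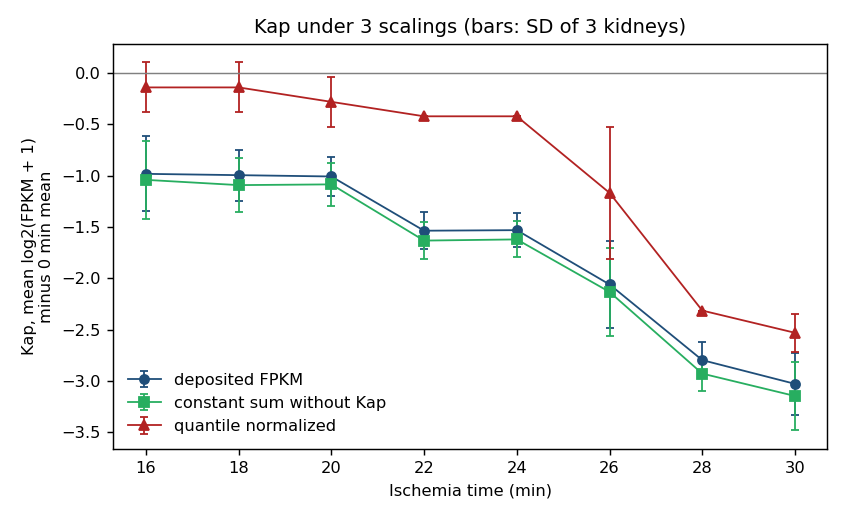
Mean difference of Kap from the 0 min mean in log2(FPKM + 1) (y axis) by ischemia time in min (x axis) on deposited FPKM, after scaling to a constant sum without Kap, and after quantile normalization, with bars for the SD of the 3 kidneys at that time. After 16 min the 3 values are -0.98, -1.04 and -0.14, and after 30 min they are -3.03, -3.15 and -2.53.

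The other abundant genes moved with the ranks as well. Of the 9 genes that followed Kap at 0 min, 5 had a different sign after 30 min against 0 min between scalings, and after 16 min 4 did. Gpx3 was at 25808, 27812 and 27234 FPKM at 0 min and at 17085, 21208 and 13016 FPKM after 30 min, so that all 3 ischemic kidneys were lower. Its difference was -0.68 on deposited values (adjusted p = 0.000105, limma) and 0.14 after quantile normalization (adjusted p = 0.45). Fth1, the ferritin heavy chain, was at 5205, 5375 and 5707 FPKM at 0 min and at 9766, 10356 and 8554 FPKM after 30 min, and its difference was 0.81 on deposited values and -0.12 after quantile normalization. Gapdh, a glycolytic enzyme often taken as a reference gene, was at 0.41 and -0.15.

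Fxyd2, the gamma subunit of the sodium pump, had a call that depended on this choice. It was at 3846, 3125 and 3162 FPKM at 0 min and at 2594, 2653 and 3410 FPKM after 30 min, and the groups overlapped. After quantile normalization it was called lower at -1.34 (adjusted p = 3.41e-07, limma), whereas on deposited values the difference was -0.23 (adjusted p = 0.18). Slc34a1 was called lower after 30 min in both, at -2.46 and -2.33. Removing the Kap row before quantile normalization changed no call of any other gene in the comparisons with 0 min, and the largest move of a difference was 0.96, for Gpx3 after 30 min.

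The quantile-normalized fit is used below for genes that were not chosen by Kap's values. After 30 min against 0 min it called 10.7% of 18188 genes (5.14% higher and 5.59% lower). The share called was 8.48% after 28 min (4.27% higher and 4.21% lower), 3.77% after 26 min (1.61% lower) and 3.29% after 22 min (1.2% lower). It was 2.25% after 16 min (1.28% higher and 0.979% lower) and 1.5% for 28 min against 26 min (0.44% higher and 1.06% lower). The share after 16 min rested on the settings: the 410 genes called became 622 (3.42%) without the third 16 min kidney, 40 with only the 16 and 0 min kidneys fitted and 795 with a pseudocount of 0.1. That pseudocount also gave more calls at the later times, 3276 in place of 1950 after 30 min. After 26 min 57.3% of the called genes were higher in this fit, against 68.9% after scaling to a constant sum with Kap and 61.7% without it. All comparisons with 0 min share the same 3 control kidneys.

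Genes known for androgen-dependent or male-biased expression in the mouse kidney did not move as one. Of 13 such genes, 2 were called lower and 0 higher after 16 min, with a median difference of -0.05 against -0.0028 over all genes tested. After 30 min 8 were lower and 1 higher, with a median of -1.44 against 0.00077. After 28 min against 26 min, 3 were lower and 0 higher. Leaving out the third 16 min kidney gave 3 called after 16 min, with a median of -0.25, and leaving out the second gave 1.

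Cyp7b1, an oxysterol 7-alpha-hydroxylase, was further below its control level than Kap at every ischemia time. It was at 126, 153 and 136 FPKM at 0 min, at 30.7, 10.04 and 40.6 FPKM after 16 min and at 1.68, 1.69 and 2.55 FPKM after 30 min. All kidneys at 16 and 30 min were below the controls, and it fell by 2.51 (log2) after 16 min (adjusted p = 0.0011, limma) and fell by 5.54 after 30 min (adjusted p = 8.01e-09). Cyp2e1, an ethanol-inducible cytochrome P450, was at 788, 795 and 797 FPKM at 0 min and at 392, 255 and 451 FPKM after 16 min, and fell by 1.10 (adjusted p = 0.00075, limma). It was the other gene of the list called after 16 min, and after 30 min it was at 74.3, 106 and 75.7 FPKM.

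Slc7a13, a cystine and acidic amino acid transporter of the late proximal tubule, and Acsm3, an acyl-CoA synthetase of mitochondria, followed another course. Slc7a13 was at 316, 235 and 161 FPKM at 0 min, 138, 72.0 and 230 FPKM after 16 min, 42.2, 51.5 and 60.2 FPKM after 26 min and 7.53, 5.85 and 8.73 FPKM after 28 min. The 16 min kidneys overlapped the controls. Without the third of them Slc7a13 was called lower after 16 min, at -1.21 (adjusted p = 0.025, limma), and it fell by 2.66 between 26 and 28 min (adjusted p = 0.00012, limma). Acsm3 was at 290, 224 and 214 FPKM at 0 min, 302, 129 and 290 FPKM after 16 min, 70.3, 94.5 and 174 FPKM after 26 min and 21.1, 12.9 and 20.4 FPKM after 28 min. It overlapped the controls after 16 min and fell by 2.56 between 26 and 28 min (adjusted p = 7.9e-05, limma). Slco1a1, an organic anion transporter, was called lower after 22 min and not after 16 min, where it was at 13.5, 6.82 and 23.9 FPKM against 17.1 to 21.3 FPKM in the controls.

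Other genes of the list were not called lower at some or all ischemia times. Kap was chosen for being lower in every ischemia group, and by fold alone it would not always pass this rule. Its difference after 16 min was -0.98 on deposited values and -0.14 after quantile normalization, both under the fold threshold in size. Odc1, the first enzyme of polyamine synthesis, was at 206 to 271 FPKM at 0 min, 392 to 474 FPKM after 16 min and 211 to 336 FPKM after 30 min, and its difference after 16 min was 0.91 (adjusted p = 0.00052, limma), under the fold threshold. Gusb, a lysosomal glucuronidase, was at 15.3 to 17.3 FPKM at 0 min and 17.4 to 19.6 FPKM after 30 min. Adh1, an alcohol dehydrogenase, was at 307 to 397 FPKM at 0 min, 356 to 440 FPKM after 28 min and 433, 221 and 177 FPKM after 30 min, where 2 of the 3 kidneys were below the controls and the difference was -0.43 (adjusted p = 0.084, limma). Cyp4a12a, a fatty acid hydroxylase with a near-identical neighbour whose reads could be split with it, was called lower after 22 min at -1.69 (adjusted p = 0.0055, limma) and not after 28 min, where it was at 21.6 to 30.6 FPKM against 25.0 to 30.1 FPKM at 0 min. The gene called higher at 28 and 30 min was Timd2, a cell-surface receptor that binds ferritin, at 1.41 and 1.18, and its place among androgen-regulated genes is the least certain of the 13.

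**Figure D5:**
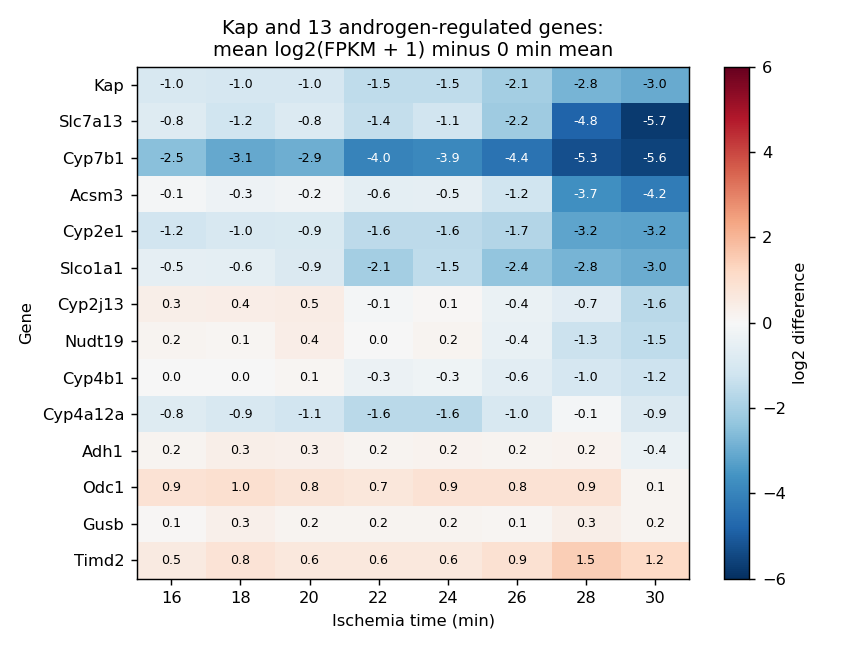
Mean log2(FPKM + 1) minus the 0 min mean on deposited values (colour and printed value) of Kap and the 13 genes of the androgen-regulated list (y axis) by ischemia time in min (x axis), n = 3 kidneys per time. After 30 min Slc7a13, Cyp7b1, Acsm3 and Cyp2e1 lie below Kap, while Gusb, Odc1 and Adh1 lie within 0.5 of their 0 min level.

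Genes for receptors and enzymes of these hormones were far less abundant. Thra, a thyroid hormone receptor, was at 37.9, 32.8 and 30.0 FPKM at 0 min and at 18.2, 18.0 and 18.4 FPKM after 16 min, where the groups were separate and the difference of -0.92 was under the fold threshold (adjusted p = 0.00025, limma). After 26 min Thra fell by 1.10 (adjusted p = 1.77e-05, limma). Of the 5-alpha-reductases, which make dihydrotestosterone, Srd5a1 rose by 1.48 after 30 min (adjusted p = 7.56e-07, limma), from 7.27 to 9.33 FPKM at 0 min to 22.8 to 29.8 FPKM. Srd5a2 was called lower at -1.12 in this fit and was at -0.998 on deposited values, just under the threshold. Of all 12 genes in this list, 0 were called after 16 min, and 3 were higher and 3 lower after 30 min, the higher ones being Srd5a1 and the transcription factors Cebpb and Cebpd.

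Genes with female-biased kidney expression differed among themselves. Slc7a12, an amino acid transporter, was at 25.4, 18.4 and 10.3 FPKM at 0 min and 0.73, 0.08 and 0.14 FPKM after 30 min, and it fell by 3.90 (adjusted p = 4.7e-09, limma). Prlr, the prolactin receptor, fell by 2.22 after 30 min (adjusted p = 0.00035, limma). Abcc3, an efflux transporter, went the other way, from 0.35, 0.37 and 0.48 FPKM at 0 min to 3.93, 3.6 and 3.18 FPKM after 30 min, and rose by 1.62 (adjusted p = 4.86e-06, limma). Cyp4a14, a fatty acid hydroxylase and the last of the 4, was at 107 to 219 FPKM at 0 min and 45.5 to 234 FPKM after 30 min, and the groups overlapped.

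The proximal tubule, where Kap is made, was followed with 29 genes. After 16 min 4 were called lower and 0 higher, with a median difference of -0.49 against -0.0028 over all genes tested, and on deposited values 1 was called. Without the third 16 min kidney the number was 6, with a median of -0.70, and without the second it was 2. After 28 min against 26 min, 12 were lower and 0 higher. After 30 min 23 were lower and 0 higher, with a median of -2.05 against 0.00077.

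The FPKM summed over these 29 genes was 14269 to 15609 in the 0 min kidneys, 10555 to 14389 after 16 min, 8801 to 11596 after 26 min, 5308 to 5468 after 28 min and 3111 to 4399 after 30 min. As a share of the 0 min mean it was 79.0% after 16 min, 68.6% after 26 min, 35.8% after 28 min and 25.0% after 30 min, where Kap was at 51.7%, 24.7%, 14.5% and 12.4%. Kap was 3.21 times the sum at 0 min, 2.15 times after 16 min, 1.20 times after 26 min, 1.30 times after 28 min and 1.67 times after 30 min. Kap was thus lower for its control level than the sum was at each of these times, and the mean ratio at 28 and 30 min was no lower than after 26 min. Without the third 16 min kidney the sum after 16 min was 70.5% of the 0 min mean and the ratio was 2.37. The ratio ran from 0.778 to 1.81 among the 26 min kidneys and from 1.15 to 2.40 among the 30 min kidneys, so these groups overlapped.

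Members of the proximal tubule list differed in the same way. Slc22a7, an organic anion transporter, was at 107, 97.8 and 85.4 FPKM at 0 min, 52.4, 21.3 and 32.7 FPKM after 16 min and 1.62, 1.95 and 4.05 FPKM after 30 min. It was separate from the controls at both times, and fell by 1.53 after 16 min (adjusted p = 0.0031, limma) and fell by 4.85 after 30 min. Mep1b, the beta subunit of the brush border protease meprin, was at 20.8, 22.0 and 26.8 FPKM after 26 min and at 1.5, 1.68 and 1.78 FPKM after 28 min, and fell by 3.15 between them (adjusted p = 7.4e-05, limma). Slc6a19, a neutral amino acid transporter, was called lower after 16 min at -1.04 and was at -0.38 after 30 min (adjusted p = 0.15, limma). Pck1, a key enzyme of gluconeogenesis, and Slc5a2, the main glucose transporter of the early proximal tubule, were at -0.07 (adjusted p = 0.92) and -0.33 (adjusted p = 0.30) after 30 min (limma). Hnf4a, a transcription factor of proximal tubule identity, was at -0.10 after 16 min and at -0.61 after 30 min, under the fold threshold.

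Genes that mark other parts of the kidney are given beside these values. Of 11 genes of the loop, distal tubule and collecting duct, 0 were called after 16 min, 7 were lower after 28 min and 6 were lower after 30 min. Their summed FPKM was 2535 to 2823 at 0 min and 861 to 1202 after 28 min. In the third 30 min kidney, which had the highest Kap of that group, it was 3029 against 894 and 926 in the others. That sum was mostly Umod (2034 FPKM). In that kidney Umod and Aqp2 were above all controls, and Aqp3, Scnn1b and Atp6v1g3 were within the control range. Slc12a1, Slc12a3, Egf, Calb1, Avpr2 and Slc4a1 were below all controls. Of 8 immune cell genes, 1 was called higher after 16 min and 3 after 30 min, and of 7 tubular injury genes 6 were called higher at both. The summed injury genes were at 18687 to 24290 FPKM after 28 min and 21338 to 27669 FPKM after 30 min. Of 9 genes of podocytes, endothelium and stroma, 2 were higher and 0 lower at both 16 and 30 min. Without the third 16 min kidney, 1 loop, distal tubule and collecting duct gene (Egf) and 1 gene of podocytes, endothelium and stroma (Kdr) were also called lower after 16 min, and the counts after 16 min in the receptor and enzyme, immune and injury lists were as before. The part of these cells in Kap's level was not tested.

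The step in Kap between the 18 and 20 min kidneys and the 22 and 24 min kidneys was looked for in other genes, a contrast chosen after Kap's values were seen. Kap ran from 21839 to 29488 FPKM in the former 6 kidneys, with a median of 22194, and from 14842 to 19054 FPKM in the latter, with a median of 15911. Of all 18188 genes, Kap included, 61 had groups that did not overlap (0.335%). Of the androgen-regulated list these were Cyp4b1, Cyp2e1 and Cyp7b1, 3 of 13, and no gene of the other lists was among them. Cyp2e1 ran from 387 to 429 FPKM in the former and from 218 to 308 FPKM in the latter. Cyp7b1 ran from 10.2 to 25.4 FPKM and from 4.95 to 9.94 FPKM, and Cyp4b1, a monooxygenase of the cytochrome P450 family, from 772 to 970 FPKM and from 581 to 707 FPKM. No gene was called by limma in this contrast (0% of 18188), while 525 had an unadjusted p under 0.05. The adjusted p of Cyp2e1 was 0.92 (limma).

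The genes whose course over the 27 kidneys was most like that of Kap were taken from 6577 other genes with a mean of at least 10 FPKM, by the root mean square difference of log2(FPKM + 1) after centring each gene. The median over these genes was 0.97, and the closest 10 ran from 0.30 to 0.37, with the next at 0.38. They were Ugt3a2, Slc39a8, Cbs, Cyp2e1, Aqp1, Csad, Lpl, Acadm, Bdh1 and Ace. As they were chosen by this likeness, no test is given. Cyp2e1 is also in the androgen-regulated list and Aqp1 in that of the proximal tubule.

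Ugt3a2, a UDP-glycosyltransferase, was the closest, at 703, 725 and 648 FPKM at 0 min, 340, 264 and 448 FPKM after 16 min, 240, 269 and 265 FPKM after 26 min and 95.0, 97.7 and 103 FPKM after 30 min. Its mean difference from 0 min on deposited values was -1.01 after 16 min, near that of Kap, and -1.42 after 26 min, where Kap was at -2.06. Slc39a8, a zinc and manganese transporter, was at 31.5 to 38.3 FPKM at 0 min and 5.02 to 5.61 FPKM after 30 min. Aqp1, the water channel of the proximal tubule and thin descending limb, was at 471 to 510 FPKM at 0 min and 39.7 to 85.1 FPKM after 30 min. Lpl, lipoprotein lipase, was at 211 to 279 FPKM and at 33.7 to 39.5 FPKM at these times. Cbs and Csad act in the metabolism of sulfur amino acids and taurine, Acadm in the oxidation of medium-chain fatty acids and Bdh1 in that of ketone bodies. Ace, the angiotensin-converting enzyme, was at -0.33 after 16 min and -2.43 after 30 min, so that of the 10 its level after 16 min was the nearest to that of 0 min.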

How the data were processed

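Kidney RNA of 27 mice was sequenced on a DNBSEQ-G400, and the processing notes of the submitters name Bowtie2, RSEM, DESeq2 and GRCm38.p6, without their roles. The deposited table held FPKM per gene on a linear scale, given to 2 decimals, neither quantile normalized nor log transformed, although the study's methods describe both. Read depth could not be recovered: in 141 genes above 0 in 4 to 16 kidneys, 39.0% of 802 low values were within 10% of 1 read from a whole multiple of the gene's lowest value. Intervals from counting are therefore not given, and sequencing precision is unknown. The table lists no mitochondrial (mt-) genes.

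From these values, log2(FPKM + 1) was quantile normalized and fitted with limma 3.58.1 in R 4.3.3, with a mean for each of the 9 times and all 27 kidneys, on the 18188 genes above 0 in at least 3 kidneys. A gene was called at a log2 fold change beyond 1 in size and an adjusted p (Benjamini-Hochberg, all genes tested) under 0.05. Fold changes on this scale understate those of low genes. On simulated data for 30 min against 0 min (18188 genes), 197 of 200 planted genes with a log2 change of 2 were recovered, with 0 false calls. The planted genes had a mean log2 value above 2, went up and down in equal numbers and had independent noise. No other gene changed, so the simulation does not cover the shifts in rank of abundant genes described above. Kap's row was in these fits, but no test of Kap is reported, and its differences are on deposited values unless said otherwise. Counts over all 18188 genes include Kap where it was called. With the Kap row removed, 685 genes were called in place of 686 after 26 min and 1541 in place of 1542 after 28 min. After 30 min it was 1949 in place of 1950, and for 28 against 26 min 271 in place of 272. For a constant sum, FPKM were multiplied so that every kidney had the same total, with Kap, without Kap or without the 10 most abundant genes in it.

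Genes were named by rule: Kap, the 10 highest at 0 min, the 10 nearest in course, members of the lists, and up to 5 per comparison whose call depended on Kap. Gm46894 falls outside it, and some genes that the rule names are not reported here. The gene, the lists and the comparisons were chosen with earlier results of these data known. Each kidney is a separate mouse, and p-values measure the spread between mice. Alternatives were the pseudocount, the scaling, the filter, the samples fitted, a replicate block, a mean-variance trend and fits without each kidney in turn. Annotation was taken from GENCODE M21 and the promoter window from RefSeq, both GRCm38.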

Additional observations from a re-analysis of the deposited data

How the results depend on the processing

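Of 195 values recomputed under the alternatives, 179 stayed within 1.5 times the reported count or within 1 SD, 16 moved and none reversed. With a pseudocount of 0.1 in place of 1, the genes called rose from 410 to 795 after 16 min, from 686 to 1318 after 26 min, from 1542 to 2626 after 28 min, from 1950 to 3276 after 30 min (all against 0 min) and from 272 to 515 for 28 min against 26 min. Fitting only the 16 and 0 min kidneys left 40 calls. Without normalization 1 proximal tubule gene was called after 16 min. Kap's difference from 0 min after quantile normalization was -0.14 after 16 min, -1.17 after 26 min, -2.31 after 28 min and -2.53 after 30 min, and -1.15 for 28 min against 26 min, as this step sets values by rank, and after 28 min it was -2.93 with a constant sum without Kap. The share of calls that were higher after 24 min was 63.1% after quantile normalization and 74.3% on deposited values. Leaving out each kidney in turn gave 287 to 622 calls after 16 min, 622 to 740 after 26 min, 1484 to 1642 after 28 min, 1871 to 2052 after 30 min and 198 to 365 for 28 min against 26 min. The 622 after 16 min came without the third 16 min kidney. In the androgen-regulated list it gave 1 to 3, 3 to 4 and 9 to 10 calls after 16 min, for 28 against 26 min and after 30 min, and in the proximal tubule list 2 to 6, 10 to 13 and 22 to 24. The lowest counts after 16 min in both lists came without the second 16 min kidney. Kap's difference ran from -1.16 to -0.80 after 16 min, -2.29 to -1.88 after 26 min, -2.90 to -2.74 after 28 min, -3.20 to -2.92 after 30 min and -0.91 to -0.50 for 28 against 26 min. The numbers of the kidneys did not pair them: deviations of 108 same-numbered pairs correlated at -0.42 to 0.48 with a median of -0.0087, and 8 of 27 kidneys were closest to one of their own number. With a replicate block, 410, 687, 1543, 1950 and 271 genes were called in the same order, and no count of calls moved by over 1.5 times. Kap was highest in the kidney numbered 3 at 6 of 9 times. Depth, being unknown, sets no stated limit.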
